A study of Mus musculus with 12 samples.

Results

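In the triceps of mice infused with saline or 20-hydroxyecdysone, 189 of the 45281 probes on the array were raised together in 2 pools of the 5-day groups, 1 of each infusion. Among the genes they detect are those of lymphocytes, of antigen-presenting cells and of lymph node stroma. The members were chosen by their own signal. Each array was divided by its median signal, and each probe was then divided by its median over the 12 arrays, which gives the ratio used below. A probe was kept when this ratio was at least 2.5 in saline 5d rep2 and at least 1.5 in 20E 5d rep3, with a detection p-value under 0.05 in both. Probes with a ratio of 2 or more in 20E 15d rep3 were to be left out, which removed 0, and the detection requirement also removed 0. The ratios in these arrays are therefore a description and carry no test.

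The mice were male C57BL/6J animals of 12 weeks, and all carried a pump under the skin that released its content continuously. Saline 5d and saline 15d received saline for 5 or 15 days, and 20E 5d and 20E 15d received 20-hydroxyecdysone, a steroid moulting hormone of insects, at 5 mg/kg/day for the same times. Each of the 4 groups had 3 arrays, and each array held the RNA of 3 pooled animals, except 1 saline pool that held 2. A pool averages its animals, so p-values below measure the spread between pools. RNA came from whole pieces of the triceps brachii, a muscle of the forelimb, with whatever else a piece held. The arrays were Illumina MouseWG-6 BeadChips, whose bead-borne probes are scored against negative control beads for detection.

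Lymphocytes circulate between blood and lymph nodes, small organs embedded in fat along the lymphatic vessels, some of which lie beside the muscles of the forelimb. In a node, stromal cells make chemokines that gather T lymphocytes, B lymphocytes and dendritic cells. B lymphocytes, dendritic cells and macrophages show peptides to T lymphocytes on MHC class II molecules, whose genes are switched on together by the coactivator Ciita. Fibres of resting skeletal muscle are not known as a main site of these programmes, and resting muscle holds scattered macrophages and few lymphocytes.

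The median signal of the 12 arrays lay between 111.1 and 140.3, and between 17106 and 18861 probes were detected on each. The highest median was that of 20E 5d rep1, 140.3, against 111.9 in saline 5d rep2 and 113.35 in 20E 5d rep3. Signals of single probes quoted below are not scaled for this, which favours 20E 5d rep1, whereas ratios are scaled. The arrays carry running numbers from 1 to 12, of which saline 5d rep2 has 10, 20E 5d rep3 has 12 and 20E 5d rep1 has 1. The labels do not say what these numbers stand for. The summed signal of 15 genes of the skeletal muscle fibre, relative to its median over the arrays, was 1.02 in saline 5d rep2 and 1.10 in 20E 5d rep3, inside the range of 0.90 to 1.10 on the 9 arrays in which the members were not raised. All 15 genes were detected, as the tissue label requires.

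All 189 members had their highest ratio in saline 5d rep2 and their second highest in 20E 5d rep3. The median ratio over the members was 3.45 in saline 5d rep2, with a range of 2.51 to 46.6. It was 2.24 in 20E 5d rep3, with a range of 1.52 to 23.9. On the other arrays of 5 days, the median was 0.99 in saline 5d rep1, 0.98 in saline 5d rep3 and 0.99 in 20E 5d rep2. After 15 days it was 0.98, 0.98 and 1.00 in the saline pools and 0.97, 0.96 and 0.97 in the 20E pools. The background was not subtracted from these signals, so a ratio understates the change of a dim probe. The second threshold did little of the choosing: of 191 probes at 2.5 or more in saline 5d rep2 and detected there, 189 were also at 1.5 or more in 20E 5d rep3, against 0.828% of all probes on the array.

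20E 5d rep1 stood between these pools and the rest, although no threshold was set on it. Its median member ratio was 1.22, with a range of 1.01 to 4.71. All 189 members lay above 1 there, as did 57.6% of all probes. A ratio of 1.2 or more was reached by 103 members, or 54.5%, against 7.0% of all probes, and 1.5 or more by 37 members, or 19.6%, against 0.704%. For 173 of the 189 members the ratio in 20E 5d rep1 exceeded that on each of the other 9 arrays. The share of all probes that did so was not computed, so this count is a description alone. This pool also differed from the others in genes of lipid synthesis. Their summed signal was 2.60 times its median there, against 1.21 in saline 5d rep2, 1.31 in 20E 5d rep3 and at most 1.10 elsewhere. The lists of fat cells differed less. White fat cells had 1.29 in 20E 5d rep1, against 0.95 to 1.12 on the other 9 arrays. Brown fat cells had 1.08, inside the range of 0.89 to 1.10 on those arrays. Adipoq, a hormone of fat cells, had a ratio of 6.21 in 20E 5d rep1. The part of the fat in the members' signal was not tested.

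The MHC class II members were 16 probes of 10 genes. They covered the peptide-binding chains H2-Aa, H2-Ab1 and H2-Eb1, the invariant chain Cd74 that guides them through the cell, and the peptide-loading helpers H2-DMa, H2-DMb1 and H2-DMb2 with their partners H2-Oa and H2-Ob. Ciita itself was also a member, with a ratio of 2.69 in saline 5d rep2, and was detected in the 2 selecting pools alone. The probe ILMN_1221817 of Cd74 gave a signal of 5401 in saline 5d rep2, 2920 in 20E 5d rep3 and 1774 in 20E 5d rep1. On the other 9 arrays its signal ran from 620 to 1096 with a median of 717. Cd74 was thus well detected in every pool, and the 3 raised pools lay above all others. H2-Eb1 gave 2403, 1427 and 837 in these 3 pools and 307 to 543, with a median of 404, elsewhere. The 3 member probes of H2-Ab1 had ratios of 6.36, 6.19 and 5.36 in saline 5d rep2 and of 2.75, 3.72 and 2.91 in 20E 5d rep3, so they shared the direction and differed in size. H2-DMb1 and H2-DMb2 are near-identical genes, and their probes may not tell them apart.

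Promoter sequences of these genes are shown because the MHC class II genes share a short element, the Y box, at which the factor NF-Y binds. They were read from a table of RefSeq promoters on build GRCm38.p6, which held 116 sequences for 92 of the 123 member genes. Each stretch below runs 5′ to 3′ from 120 bases before the annotated transcription start to 20 bases after it, and capitals mark the letters CTGATTGG.
H2-Aa, chr17:34287804-34287943, minus strand: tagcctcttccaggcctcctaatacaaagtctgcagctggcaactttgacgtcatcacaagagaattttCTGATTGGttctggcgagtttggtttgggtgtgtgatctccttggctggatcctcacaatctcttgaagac
H2-Eb1, chr17:34305747-34305886, plus strand: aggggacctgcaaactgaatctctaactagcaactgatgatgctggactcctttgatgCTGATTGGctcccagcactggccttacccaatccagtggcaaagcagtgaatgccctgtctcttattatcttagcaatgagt
H2-Oa, chr17:34092259-34092398, plus strand: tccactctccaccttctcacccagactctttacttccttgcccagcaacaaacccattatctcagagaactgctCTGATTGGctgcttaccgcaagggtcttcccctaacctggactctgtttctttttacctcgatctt

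The element starts 51, 62 and 46 bases before the start of H2-Aa, H2-Eb1 and H2-Oa, in the same orientation in all 3. The letters were searched on both strands over 300 bases of each promoter. They were found in 3 of 8 promoters of MHC class II members, in 7 of 116 promoters of member genes (6.03%) and in 4.1% of all 32851 promoters in the table. In the arrays that chose them, H2-Aa, H2-Eb1 and the brighter H2-Oa probe had ratios of 5.10, 5.93 and 4.28 in saline 5d rep2 and of 3.57, 3.47 and 2.35 in 20E 5d rep3. A match is a string of letters and not a shown binding site, and its absence from the other windows says nothing of the factor.

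Another element of blood cell genes, the PU box GAGGAAGT, to which the factor PU.1 binds, was found in 11 of the 116 promoters (9.48%) and in 3.2% of all promoters. The genes were Bcl2a1b, Bcl2a1d, Btla, Cd53, Cd72, Cyth4, Gimap1, Il4i1, Itgb7, Rassf5 and Samsn1. The promoters of Cd72, a receptor of B lymphocytes, and of Samsn1, a signalling adaptor of lymphocytes that holds the element on both strands, are shown over the same window, with the element or its reverse complement in capitals.
Cd72, chr4:43454607-43454746, minus strand: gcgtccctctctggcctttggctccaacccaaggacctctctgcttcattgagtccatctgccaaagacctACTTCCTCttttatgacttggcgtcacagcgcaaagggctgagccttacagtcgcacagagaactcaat
Samsn1, chr16:75909247-75909386, minus strand: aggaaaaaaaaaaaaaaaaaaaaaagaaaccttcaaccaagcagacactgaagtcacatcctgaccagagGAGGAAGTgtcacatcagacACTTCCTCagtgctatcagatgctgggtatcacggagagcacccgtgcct

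The octamer ATGCAAAT, an element of B lymphocyte promoters, was found in 4 of the 116 promoters (3.45%), those of Ccr6, H2ac12, Prkcb and Sash3, and in 1.74% of all promoters. It was in 0 of the 9 promoters of B lymphocyte members. Each window printed here holds 1 of the 3 motifs and neither of the others.

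The B lymphocyte members were 18 probes of 14 genes, with a median ratio of 3.24 in saline 5d rep2, 2.19 in 20E 5d rep3 and 1.16 in 20E 5d rep1. Fcmr, the receptor for the Fc part of immunoglobulin M, led them. It gave a signal of 1773 in saline 5d rep2, 1022 in 20E 5d rep3 and 315 in 20E 5d rep1, against 105 to 128 on the other 9 arrays, where it was not detected. Cd79b, a signalling chain of the B cell receptor, gave 1058, 591 and 223 in the same order with probe ILMN_2610822 and 111 to 139 elsewhere. Cd79b was detected on 1 of the other 9 arrays, so both genes were near background outside the 3 raised pools. Cd22, a co-receptor that restrains B cells, had a ratio of 3.12 and was detected in the 2 selecting pools alone. Pou2af1, a coactivator of antibody genes, had 3.60, and Tnfrsf13c, the receptor for the survival factor BAFF, had 2.67. The kinases Btk and Blk, which act below the receptor, had 2.91 and 2.71. Mzb1, a chaperone of antibody assembly, was detected on all 12 arrays and had 3.21. The 3 member probes of Fcrla, an Fc receptor-like protein kept inside B cells, had 4.33, 3.27 and 2.78, while its probe ILMN_1229840 had 1.39 and was not a member.

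Of the 13 B lymphocyte and plasma cell markers listed, 7 had a member probe. Pax5 and Cr2 were not detected on any array, Ms4a1 had a ratio of 1.23 in saline 5d rep2 and Jchain, a chain of secreted antibodies, had 0.94. Cd22 shows how far the probe matters: its other probes had ratios of 1.59 and 1.07 in the same pool.

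The T or NK lymphocyte members were 18 probes of 16 genes, with a median ratio of 3.39 in saline 5d rep2 and 2.08 in 20E 5d rep3. They held the CD3 chains Cd3d, Cd3e and Cd3g of the T cell receptor complex, the co-receptor chain Cd8b1 and the receptor beta segment Trbv13-2. Cd3d gave a signal of 810 in saline 5d rep2, 399 in 20E 5d rep3 and 182 in 20E 5d rep1, against 100 to 124 on the other 9 arrays. Cd8b1, with probe ILMN_2741169, gave 1120, 622 and 274 in these pools and 102 to 139 elsewhere. Trbv13-2 had the highest ratio of the group, 12.3 in saline 5d rep2, and 4.86 in 20E 5d rep3. Each of these member probes was detected in the 3 raised pools and on no other array. Ccl5, a chemokine of cytotoxic cells, had ratios of 9.14, 4.66 and 2.18 in saline 5d rep2, 20E 5d rep3 and 20E 5d rep1. Klrd1 and Nkg7, genes of natural killer and cytotoxic T cells, had 2.60 and 2.56 in saline 5d rep2. Il7r, the receptor for a survival cytokine of T cells, had 3.48 with 1 of its 5 probes and 1.03 to 1.19 with the others.

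Of 14 listed T and NK markers, 7 had a member probe, and Cd4, Cd5 and Cd8a were not detected on any array. The best detected probes of Thy1 (2.17), Lat (2.29) and Cd2 (2.08) lay below the threshold of 2.5 in saline 5d rep2. Ccr7, detected on 5 arrays, had 1.11 there. Cd8b1 had 2 more probes, with 1.77 and 0.97 in that pool.

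The chemokine and stroma members were 9 probes of 8 genes. Ccl21a and Ccl19, chemokines of the T cell zone that are made by stromal cells, had ratios of 4.76 and 3.91 in saline 5d rep2. Ccl21a gave a signal of 1220 in saline 5d rep2, 624 in 20E 5d rep3 and 469 in 20E 5d rep1, against 232 to 327 with a median of 250 on the other 9 arrays. It was detected on all 12 arrays, and its 3 raised pools lay above the rest. The near-identical Ccl21c had 4.90 and 4.15, and its probes may read either gene. Cxcl13, which draws B cells into follicles, had 4.43 in saline 5d rep2 and 3.37 in 20E 5d rep3. Glycam1, a mucin of the high endothelial venules through which lymphocytes enter a node, gave 1011, 435 and 318 in the 3 raised pools and 94 to 122 elsewhere, where it was not detected. Vcam1, an adhesion molecule of stroma and endothelium, had 3.28, and the lymphocyte cytokine Ltb, which acts on that stroma, also had 3.28. Ccr6, a chemokine receptor of B cells, had 3.85. Of 8 listed lymph node stroma markers, 4 were members. Madcam1 was not detected on any array, and Pdpn, Ltbr and Lyve1 were detected on all 12 with ratios of 0.96, 1.04 and 1.07 in saline 5d rep2.

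Surface and myeloid genes of leukocytes gave 18 member probes of 16 genes. Cd52, a short glycoprotein of lymphocytes, had the highest ratio among probes with a gene name: its signal was 2971 in saline 5d rep2, 1597 in 20E 5d rep3 and 668 in 20E 5d rep1, against 158 to 241 elsewhere. Laptm5, a lysosomal protein of blood cells, had ratios of 5.87 and 4.70 in the 2 selecting pools. Cd209b, a lectin of macrophages in lymphoid organs, had 4.07 and 3.79 with its 2 probes in saline 5d rep2. The lysozyme genes Lyz1 and Lyz2, which near-identical sequence makes hard to tell apart, differed from the lymphocyte genes in being strongly detected everywhere. Lyz1 gave 7533, 6535 and 4376 in the 3 raised pools and 2299 to 4055, with a median of 3119, on the other 9. Its ratio of 1.19 in 20E 5d rep1 was below the 1.33 of saline 15d rep2 and the 1.23 of saline 15d rep3. Macrophage markers without a member probe included Csf1r, with 1.33 by its detected probe, and C1qa, with 1.25. Itgax, a dendritic cell integrin, was not detected on any array.

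Genes of the cytoskeleton and of signalling in leukocytes made the largest named group, with 32 probes of 27 genes and a median ratio of 3.33 in saline 5d rep2. Coro1a, an actin-binding protein of blood cells, had 4 member probes. The brightest, ILMN_2714796, gave 2774 in saline 5d rep2, 1679 in 20E 5d rep3 and 617 in 20E 5d rep1, against 195 to 274 with a median of 241 elsewhere. The ratios of the 4 probes in saline 5d rep2 were 12.2, 11.2, 5.29 and 4.02, with the lower values from the probes detected on 5 and 4 arrays. Cytip, which regulates adhesion of lymphocytes, had 8.46. The phosphatase Ptpn6, which dampens receptor signals, had 4.77. Was and Nckap1l, which drive actin branching in blood cells, had 2.64 and 3.06.

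Histone H2A genes gave 8 probes of 7 genes, all detected on all 12 arrays. Their median ratio was 2.93 in saline 5d rep2, 2.00 in 20E 5d rep3 and 1.16 in 20E 5d rep1, and none reached 1.2 in the last. H2ac24 gave unscaled signals of 2061, 1399 and 950 in these pools and 614 to 782 elsewhere. The coding sequences of these genes are close copies, so the 8 probes may share transcripts. The cell cycle list held 0 members, and its summed signal was 1.13 times its median in saline 5d rep2 and 1.03 in 20E 5d rep3. Both lay above the range of 0.98 to 1.01 on the other 9 arrays.

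The other named members were 30 probes of 25 genes. They included the lymphocyte transcription factors Ikzf1 and Ets1, with ratios of 5.21 and 3.50 in saline 5d rep2, and the proton channel Hvcn1, with 5.88 and 3.59. Btg1, a brake on proliferation, had 4.02 and 3.48. Psmb9, a subunit of the immunoproteasome, had 2.54, while its partner Psmb8 reached 2.69 in saline 5d rep2 and was left outside by a ratio of 1.44 in 20E 5d rep3. A probe of Rpl3, a ribosomal protein, gave 7029, 5942 and 5398 in the 3 raised pools and 2622 to 3191 on the other 9 arrays.

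The annotation table lists no gene for 40 of the 189 members, and among these were the 3 highest ratios of all. ILMN_2704562, ILMN_2684370 and ILMN_2417926 had 46.6, 46.4 and 39.9 in saline 5d rep2. ILMN_2684370 gave a signal of 6281 in saline 5d rep2, 3274 in 20E 5d rep3 and 801 in 20E 5d rep1, against 119 to 165 with a median of 140 elsewhere. The probes were near background outside the 3 raised pools, and they are named by identifier alone.

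The members kept much of their order between pools. Across the 189 probes, the log2 ratio in saline 5d rep2 had a Pearson correlation of 0.94 and a Spearman correlation of 0.76 with that in 20E 5d rep3. With 20E 5d rep1 the values were 0.88 and 0.67. With each of the other 9 arrays the Spearman correlation lay between -0.17 and 0.19. The probes are not independent, and saline 5d rep2 and 20E 5d rep3 chose them, so these are descriptions. A simpler measure is the excess, the scaled signal of a probe above its median over the arrays. The excess in 20E 5d rep3 was, at the median over members, 50.7% of that in saline 5d rep2, with quartiles of 43.9% and 58.5%. In 20E 5d rep1 it was 8.86%, with quartiles of 6.34% and 11.7%.

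By group of genes, the shares overlapped. For the chemokine and stroma members, the median share was 39.5% in 20E 5d rep3 and 15.7% in 20E 5d rep1. For the B lymphocyte members it was 54.9% and 6.45%, for the T or NK members 44.8% and 8.44%, and for MHC class II 47.6% and 11.4%. The quartiles in 20E 5d rep3 were 36.0% and 66.8% for the chemokine and stroma members, 49.9% and 59.8% for the B lymphocyte members and 40.3% and 52.0% for the T or NK members. Glycam1 had shares of 36.0% and 16.6%, whereas Fcmr had 54.0% and 8.47%. Within the chemokine and stroma group the share in 20E 5d rep3 fell into a lower and a higher range. Ccl19, Ccl21a, Ccl21c and Glycam1 lay between 29.0% and 39.5%, and Ccr6, Ltb, Cxcl13 and Vcam1 between 65.4% and 79.8%. Plac8, Psmb9 and Rpl3 had the highest shares in 20E 5d rep1, with 39.0%, 37.8% and 36.4%. These shares come from 1 pool each and carry no error.

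Marker lists of 24 cell types and processes held 27 of the 189 member probes. Only 4 of the lists held a member: B lymphocyte and plasma cell (10 of 21 probes), T and NK lymphocyte (8 of 25), lymph node stroma (4 of 8) and macrophage and dendritic cell (5 of 24). In saline 5d rep2, their summed signal relative to the median over the arrays was 3.29, 1.95, 2.59 and 2.97. In 20E 5d rep3 it was 2.19, 1.48, 1.70 and 2.11, and in 20E 5d rep1 it was 1.18, 1.15, 1.27 and 1.24. On the other 9 arrays the first 3 lists stayed between 0.91 and 1.03, and the macrophage list ranged from 0.77 to 1.13. These sums weigh bright probes most. The median probe ratio of the 4 lists in saline 5d rep2 was 2.00, 1.19, 2.49 and 1.30 in the same order. None of the other 20 lists had a probe at 2.5 in saline 5d rep2. The summed signal there was 0.98 for endothelium and mural cells, 1.00 for fibroblasts and extracellular matrix, 0.95 for white fat cells and 1.09 for neutrophils and mast cells. The last of these lay above the 0.94 to 1.02 of the other 9 arrays. Lipid synthesis (1.21 against 0.77 to 1.10), atrophy and growth signalling (1.19 against 0.75 to 1.18) and cell cycle (1.13 against 0.98 to 1.01) also did. In a piece of tissue, more cells of a type and more RNA per cell cannot be told apart.

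The comparison of 20E with saline after 15 days asked whether the hormone changed these genes in pools that raised no probe into the set. The 15-day pools entered the rule through the median over the arrays, and 20E 15d rep3 also through the limit for leaving probes out. The levels tested are log2 values after background correction and quantile normalization. No member passed an adjusted p of 0.05 in limma with Benjamini-Hochberg adjustment over 19704 probes, and the share of all probes called was 0.0%. At an unadjusted p of 0.05, 0 members and 4.16% of all probes passed. Of the 189 members, 163 were tested and 26 were detected on too few arrays. Members that entered the test through the raised pools had to differ between arrays, so the 73 members detected on all 12 arrays are used for counts. Of these, 57 lay lower with 20E and 16 higher, with a median difference of -0.16. Over all tested probes the median was 0.001, and of all probes detected on all 12 arrays 49.6% lay lower and 50.4% higher.

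The 15-day difference is small beside the spread that the raised pools put into this fit, which shares its error over the 4 groups. Without the 3 pools in which members were raised, a setting chosen after seeing the data, 0 members and 0.0% of all probes were called. At an unadjusted p of 0.05, 9 of the 73 members were lower, or 12.3%, against 1.87% of all probes detected on all 12 arrays, and 1 was higher (1.37% against 2.73%). The 9 lower probes belonged to H2-Aa, H2-Ab1, Laptm5, Lyz1, Il4i1, Coro1a, Nckap1l, H2ac7 and H2ac12, and the higher one to H2-Ob. Member probes are not independent, and some share a gene. Counts of members in this and the other comparisons are therefore descriptions.

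Among MHC class II members detected throughout, 10 of 11 lay lower with 20E. H2-Aa had levels of 7.84, 7.61 and 8.21 in the saline 15d pools and of 7.47, 7.08 and 7.35 in the 20E 15d pools. The groups did not overlap, and the difference was -0.59 with a standard error of 0.68 over 12 arrays and 0.17 without the raised pools, where limma's adjusted p was 0.804. Lyz1 had 11.27, 12.03 and 11.97 with saline and 11.28, 11.10 and 11.26 with 20E. Its difference of -0.55 had a standard error of 0.39 and a 95% interval of -1.41 to 0.32, and the groups overlapped through saline 15d rep1. Btk had 5.25, 5.52 and 5.44 with saline, where it was detected in all 3 pools, and 4.92, 4.95 and 4.92 with 20E, where it was detected in none. ILMN_2770066, which has no listed gene, had 5.29, 5.63 and 5.81 with saline and 4.68, 4.69 and 5.05 with 20E. In the other direction, Gimap1, a GTPase of lymphocytes, had 6.75, 6.71 and 6.91 with saline and 7.05, 7.13 and 6.94 with 20E, a difference of 0.25 (standard error 0.50). Dusp2, a phosphatase of activated T cells, differed by 0.32 (standard error 0.74) near the detection limit.

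The macrophage and dendritic cell list shares 5 of its 24 probes with the members, the bright Lyz1 probe among them, so its sum is not independent of theirs. Its summed signal, in multiples of the array median, was 64.6, 87.0 and 89.3 in the saline 15d pools and 67.7, 60.7 and 63.7 in the 20E 15d pools. Of its 18 tested probes 17 lay lower with 20E, with a median of -0.31, against 49.6% lower among all tested probes. In limma 0 of the 18 passed an unadjusted p of 0.05. Several of these probes share a gene, so the count is a description. All but 1 of the 14 genes of the list were detected, Itgax being the exception. The B lymphocyte list gave sums of 20.1 to 20.2 with saline and 20.0 to 20.4 with 20E, and Pax5 and Cr2 were not detected. The part of macrophage content in the difference was not tested. With running numbers 1 to 6 and 7 to 12 as a block, the median over the 163 tested members was -0.40, against -0.09 without the block. Within numbers 1 to 6 it was -0.12, and within 7 to 12 it was -0.06. Without saline 15d rep3 it was -0.05.

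After 5 days, each infusion held 1 of the pools that chose the members, so the comparison over all arrays is a description. In limma 0 members and 0.0% of all probes passed the adjusted threshold, and at an unadjusted p of 0.05 the shares were 0 members and 3.47% of probes. Coro1a, with ILMN_2714796, had levels of 7.18, 11.55 and 7.28 in saline 5d and of 8.57, 7.35 and 10.62 in 20E 5d. The groups overlapped, and each had a pool far above its lowest. The median difference over the 163 tested members was -0.05. It became 0.93 without saline 5d rep2 and -0.67 without 20E 5d rep3, so its sign turned with a single pool. Within running numbers 7 to 12, where saline was represented by its raised pool alone, it was -1.97, and with array weights it was 0.58.

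Without the 2 selecting pools, 4 arrays of 5 days remained, 2 of each infusion. No member and 0.0% of all probes were called by limma, while 5.75% of all probes passed an unadjusted p of 0.05. Of the 73 members detected on all 12 arrays, 62 lay higher with 20E and 11 lower, with a median of 0.26. Of all probes detected on all 12 arrays, 47.1% lay higher and 52.9% lower. At an unadjusted p of 0.05, 9 were higher (12.3%), against 2.1% of probes detected on all 12 arrays, and 0 were lower, against 2.52%. This result rests on 20E 5d rep1. Without that pool the median over the 163 tested members went from 0.35 to 0.02. Without 20E 5d rep2, 20E 5d rep1 is left as the lone 20E pool and is assumed to vary like the other groups. Many members entered the test through the raised pools, 20E 5d rep1 among them, so calls in that fit carry no support. Cd52 had 6.65 and 6.32 in saline 5d rep1 and rep3, 8.71 in 20E 5d rep1 and 6.69 in 20E 5d rep2. Cd74 had 9.61 and 9.50 with saline, 10.28 in 20E 5d rep1 and 9.88 in 20E 5d rep2. Vcam1 differed by 0.63 (standard error 0.17, adjusted p 0.830 in limma).

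The comparison of 15 with 5 days, over both infusions and without the 2 selecting pools, set 6 arrays against 4. No member and 0.0% of all probes were called by limma, while 11% of all probes, or 2172, passed an unadjusted p of 0.05. Of the 73 members detected on all 12 arrays, 17 were lower after 15 days at that p, or 23.3%, against 6.27% of such probes, and 1, H2ac24, was higher (1.37% against 5.32%). MHC class II probes, of 4 genes, made 7 of the 17. H2-Aa had a mean level of 8.17 over the 5-day groups and 7.59 over the 15-day groups, a difference of -0.58 (standard error 0.16, adjusted p 0.301 in limma). The 5-day levels lay between 7.88 and 8.65, and the 15-day levels between 7.08 and 8.21, so the durations overlapped. H2-Eb1 and Cd74 differed by -0.42 and -0.44 (standard errors 0.14 and 0.15). The lowest p among the members was that of Cd53, a tetraspanin of leukocytes, with -0.52 (standard error 0.12, adjusted p 0.268). H2ac24, by contrast, had 0.21 (standard error 0.09). This comparison rests on 20E 5d rep1 as well: the median over tested members was -0.22 with it and -0.02 without it.

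The difference of the 20E effect between 15 and 5 days was tested in the same 10 arrays. No member and 0.0% of all probes were called by limma, while 4.49% of all probes passed an unadjusted p of 0.05. At that p, 20 of the 73 members had a lower 20E effect (20E minus saline) after 15 days (27.4% against 1.48% of probes detected on all 12 arrays) and 0 a higher one (against 1.79%). Btk and Arhgap45 shared the lowest adjusted p among the members, 0.489, with differences of effects of -1.01 and -1.31 (standard errors 0.14 and 0.20). For H2-Aa the difference of effects was -0.94 (standard error 0.32, adjusted p 0.998), and for Cd52 it was -1.62 (standard error 0.68). Without 20E 5d rep2, 20E 5d rep1 is again the lone 20E pool of 5 days, and calls in that fit carry no support. Much of this difference rests on 20E 5d rep1, a pool in which the members were raised. Without 20E 5d rep1, the median over the 163 tested members went from -0.51 to -0.12. The shares above are therefore a description.

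At the limits of the rule, Gimap1 and Dusp2 lay just inside with ratios of 2.51 in saline 5d rep2, and Lat2 and Ly9, both leukocyte genes, lay just outside with 2.49. In 20E 5d rep3, ILMN_2674666 (1.52) and Nkg7 (1.56) were the lowest inside, and Psmb8 (1.44) and ILMN_1258548 (1.41) the nearest outside. In 20E 15d rep3, the members nearest to the limit of 2 were Plac8, a small protein of immune cells, with 1.22, and ILMN_2651137, with 1.15.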

How the data were processed

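RNA of 12 pools of triceps was measured on Illumina MouseWG-6 BeadChips. The deposited signal intensities are non-normalized, with no background subtracted, per the file headers. The deposited detection p-values compare each probe with the negative control beads of its array, per the file headers. The authors' deposited log2 values, with a floor of -1, served as an alternative, and no source used here says how they were made. BeadStudio 3.1.3 and limma are named, without roles, in the submitters' processing notes. The codes of the signal columns give infusion, duration and replicate by letter and number, and this reading was checked against the labelled log2 columns: each signal column had a rank correlation of at least 0.976 with its own log2 column and at most 0.899 with any other.

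Signals were background-corrected through the detection p-values (normexp, offset 16), normalized between arrays by quantiles and log2-transformed with limma 3.58.1 in R 4.3.3. Probes with a detection p-value under 0.05 on at least 3 arrays, 19704 in all, were tested with lmFit and eBayes, two-sided, with 4 group means and Benjamini-Hochberg adjustment over all of them. Ratios and counts used Python 3.11.15, pandas 2.3.3 and numpy 2.4.6. Scripts were tested on simulated data. The number of arrays limits the precision.

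The members and gene lists were chosen with earlier results of these data known, and gene groups were assigned after values were seen. The text names the members with the 10 highest ratios, up to 4 per list and 5 in all with the highest signal, the 2 smallest p-values in each direction after 15 days, members at the thresholds, and 3 genes with several probes. Other genes are examples chosen after their values were seen. Alternatives covered the normalization, background, offset, probe filter, spread model, array weights, running numbers, replicate numbers and each array left out. Of the probes on the array, 34885 pair with 1 symbol, 18 with several and 10378 with none in the platform annotation, which can be old.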

Additional observations from a re-analysis of the deposited data

How the results depend on the processing

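For 20E against saline after 15 days, 0 probes were called in limma under all 25 alternatives, with lowest adjusted p-values from 0.136 to 1.00, and under each left-out array the count stayed between 0 and 0. After 5 days on all arrays, the count was 0 under 23 of 24 alternatives and between 0 and 0 with each array left out. The exception was running numbers 1 to 6 alone, added after seeing the data, where 20E 5d rep1 was the lone 20E pool. The fit without the selecting pools then holds the same arrays. The sign of the members' median after 5 days also turned with median scaling (0.04) and the authors' log2 table (0.01). Without the 2 selecting pools, the authors' log2 table called 2 probes, 1 of them a member, and leaving out each array gave 0 to 78 probes and 0 to 32 members. For 15 against 5 days, median scaling called 2 probes, no background correction 28, an offset of 50 called 5, detection on all arrays 2, trend and robust variances 89 and the running-number block 4, with 0 members in each. Leaving out each array gave 0 to 50 probes and 0 to 22 members, and 1 probe without 20E 5d rep1. Median scaling moved the median of all probes in that comparison to -0.11, against -0.01. For the difference of effects, leaving out each array gave 0 to 21 probes and 0 to 17 members. The highest count in each of these 3 ranges came without 20E 5d rep2, which leaves 20E 5d rep1 as the lone 20E pool of 5 days. Many members counted there entered the test through the raised pools, so these counts carry no support. The cause was not tested.

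With the replicate number as a block, 0 probes were called in all 5 comparisons. The members' median became 0.49 for 5 days without the selecting pools and -0.19 for durations. The numbers were not shown to pair the pools: same-numbered pools correlated at 0.14, -0.51 and -0.48 after 5 days and at -0.45, -0.05 and -0.56 after 15. Ratio thresholds of 4 and 2 gave 62 members. The authors' log2 table gave 644, of which 182 were shared, or 28.3% of these and 96.3% of the members. Background-corrected and quantile-normalized values gave 436, which held all 189, or 43.3% of the 436. The named probes gave 3340 values over the alternatives, of which 3300 stayed on the same side of the threshold and 40 newly passed it. Dim signals near the background limit the 26 members detected on 2 arrays alone.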
